A study of Rattus norvegicus with 30 samples.

Results

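The genes described here, 10 in number, take part in how endothelial cells sense blood flow. They were chosen by gene name, and all 10 of the 10 names matched 1 row each among the 30562 genes of the table. They are the transcription factors Klf2, Klf4 and Klf6, the ion channels Piezo1, Piezo2 and Trpv4, the polycystins Pkd1 and Pkd2, and the kinases Map2k5 and Mapk7. All 10 passed the filter on low counts, which left 16171 genes for testing. RNA was sequenced from CD31+ cells of the lungs of wild-type rats, which were held by microbeads against CD31, an endothelial surface protein. The 6 groups of 5 libraries combined 2 operations, sham or Glenn surgery, with 3 diets, on which vitamin A was at the control level, deficient or in excess. All cells were taken 3 weeks after the operation. In the Glenn operation a superior caval vein is joined to a pulmonary artery, so that venous blood flows into the lung without the pump of the right heart and without blood from the liver. The ages of the rats, and whether replicates were separate animals, are not given in the sources used here, so the p-values measure the spread between these libraries only.

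Endothelial cells read the drag of flowing blood, called shear stress, with channels, receptors and cilia on their surface. PIEZO1, PIEZO2 and TRPV4 let calcium into the cell when the membrane is stretched or sheared, and polycystin-1 and polycystin-2 form a channel complex best known from the primary cilium. Inside the cell, steady laminar flow acts through the kinases MEK5 (gene Map2k5) and ERK5 (gene Mapk7) and the MEF2 factors on the genes of KLF2 and KLF4, which keep endothelium quiescent and antithrombotic. KLF6 is a related factor that is also induced by injury.

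Libraries held 22 to 77.6 M estimated counts (M, mega), with a median of 40 M. Levels are given as CPM, the count per 1 M of the TMM-scaled total, and they compare samples for a given gene, not different genes. The library numbers fall into a series A of 22 libraries and a series B of 8, which entered the fit as a term. The immune gene RT1-CE16 further split the libraries into 17 with 21.9 to 44.4 CPM and 13 with 407 to 949 CPM, and all 5 sham libraries on the excess diet were in the low set. All 6 endothelial markers were detected in every library, with a summed level of 5612 to 7079 CPM after sham and 4484 to 6558 CPM after Glenn surgery. The 5 markers of type 2 alveolar cells, which a CD31 sort should remove, summed to 34237 to 59047 CPM (median 41479) after sham and to 24391 to 55454 CPM (median 29675) after Glenn surgery. After Glenn surgery, averaged over diets, 8 of 8 mural, 5 of 5 lymphatic, 5 of 5 fibroblast and 4 of 5 type 1 alveolar markers rose, and 5 of 5 type 2 alveolar markers and 4 of 5 markers each of aerocyte and general capillary cells fell. Of 6 endothelial markers 3 rose and 2 fell, of 6 arterial markers 4 rose and 2 fell, and of 5 venous markers 1 rose and 3 fell. Over all tested genes 23.4% rose and 24.7% fell. In bulk RNA, fewer cells of a type and less RNA per cell cannot be told apart.

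Differences between Glenn and sham libraries were tested with edgeR's quasi-likelihood test on each diet and as the mean over the 3 diets, with Benjamini-Hochberg adjustment over all 16171 genes and an adjusted p under 0.05 counted as a change. Averaged over diets, Klf6, Trpv4 and Pkd2 rose after Glenn surgery, Klf2, Klf4, Piezo2, Map2k5 and Mapk7 fell, and Piezo1 and Pkd1 did not pass the test. This count of 8 changed genes of 10 stands beside 48.2% of all tested genes (23.4% higher and 24.7% lower). On the control diet 5 of 10 changed (24.9% of all genes), on the deficient diet 7 of 10 (27.4%) and on the excess diet 4 of 10 (21.9%). The background in each direction was 11.8% higher and 13.1% lower on the control diet, 13.7% each on the deficient diet, and 11.6% higher and 10.4% lower on the excess diet. The median log2 difference of the 10 genes averaged over diets was -0.10, against -0.01 for all genes. Klf2, Piezo2 and Trpv4 were the 3 genes whose 15 sham and 15 Glenn libraries did not overlap at all, which held for 5.83% of all genes. Within the control, deficient and excess diets, 5, 5 and 6 of the 10 genes did not overlap, against 17.2%, 19.6% and 16.3% of all genes.

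**Figure D1:**
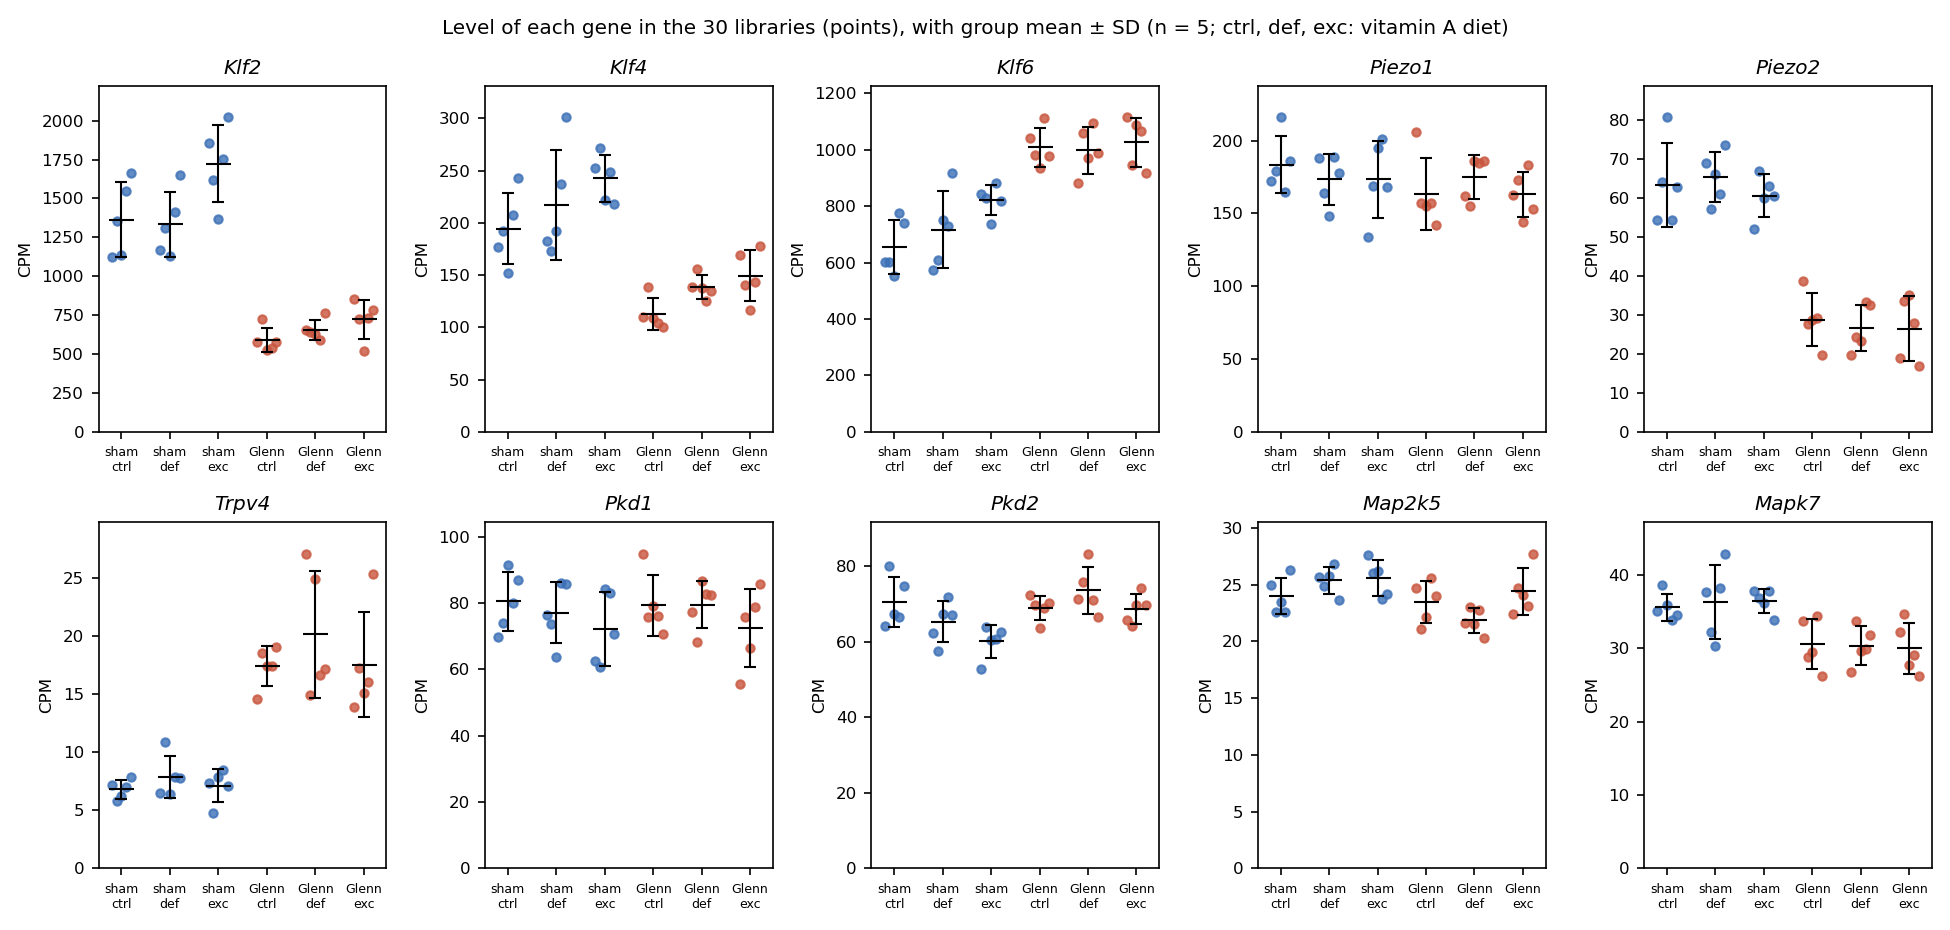
Level of each of the 10 genes (vertical axis, CPM from 0) in the 6 groups, named by operation and by diet (control, ctrl; deficient, def; excess, exc). Points are libraries, and black bars are the group mean ± SD (n = 5). Klf2 and Piezo2 are lower and Trpv4 is higher in every Glenn library than in every sham library, while the groups of Piezo1 and Pkd1 overlap.

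Among the transcription factors, Klf2 and Klf4 fell after Glenn surgery on every diet, and Klf6 rose on the control and deficient diets. Klf2 was 2.24-fold lower and Klf4 1.65-fold lower averaged over diets, and Klf6 was 1.37-fold higher.

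Klf2 (ENSRNOG00000067705) encodes a zinc finger factor that laminar flow raises and that switches on vasodilator and anticoagulant genes. On the control diet the 5 sham libraries had 1125, 1134, 1355, 1546 and 1662 CPM of Klf2, and the 5 Glenn libraries had 526, 540, 578, 579 and 723 CPM. With vitamin A deficient, Klf2 stood at 1132, 1169, 1309.6, 1411 and 1648 CPM in sham libraries and at 591, 628, 642, 654 and 763 CPM in Glenn libraries. With vitamin A in excess, it stood at 1366, 1621, 1756, 1854 and 2021 CPM in sham libraries and at 520, 728, 729, 784 and 853 CPM in Glenn libraries. The highest Glenn library of all thus lay below the lowest sham library. The means were 1474 ± 283 and 656 ± 103 CPM (SD, n = 15 each). The fall was -1.21 in log2 on the control diet (SE 0.14, edgeR adjusted p 4.9e-08), -1.02 on the deficient diet (SE 0.14, edgeR adjusted p 1.06e-06) and -1.26 on the excess diet (SE 0.15, edgeR adjusted p 2.26e-07). Averaged over diets it was -1.16, with a 95% interval of -1.326 to -1.003 and an edgeR adjusted p of 3.88e-13. Within series A alone Klf2 differed by -1.09, and within series B, which allows the comparison on the deficient diet only, by -1.04.

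Klf4 (ENSRNOG00000016299) encodes a factor that shares many endothelial targets with KLF2. On the control diet Klf4 had 152, 177, 192, 208 and 243 CPM in sham libraries and 100.5, 104, 109, 110.3 and 139 CPM in Glenn libraries. Klf4 on the deficient diet had 173, 183, 192, 237 and 301 CPM in sham libraries and 125, 135, 138, 139 and 156 CPM in Glenn libraries. Klf4 on the excess diet had 218, 222, 249, 253 and 272 CPM in sham libraries and 117, 140.3, 143, 169 and 178 CPM in Glenn libraries. The operations did not overlap within any diet, but the pooled libraries did, since 2 Glenn libraries on the excess diet were above the lowest sham library on the control diet and 1 on the deficient diet was too. Averaged over diets the means were 218 ± 41.2 and 134 ± 23 CPM (SD, n = 15 each) and the log2 difference was -0.72 (SE 0.08, edgeR adjusted p 1.13e-08). The difference was -0.79 on the control diet (adjusted p 5.37e-05), -0.63 on the deficient diet (0.000997) and -0.74 on the excess diet (0.000538), all from edgeR. The fall on the deficient diet was -0.30 and did not pass the test in series A alone (edgeR adjusted p 0.208) or in the RT1-CE16-low libraries alone (0.113), while in series B alone it was -0.90 (0.0124).

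Klf6 (ENSRNOG00000016885) encodes a factor known from the response of vessels to injury. Its levels on the control diet were 554, 601, 604, 742 and 775 CPM in sham libraries and 936, 977, 980.4, 1042 and 1112 CPM in Glenn libraries, without overlap. With vitamin A deficient, they were 575, 608, 729.6, 752 and 919 CPM and 881, 971, 989, 1059 and 1094 CPM, where the highest sham library was above the lowest Glenn library. With vitamin A in excess, they were 736, 818, 829, 842 and 883 CPM and 919, 946, 1066, 1087 and 1115 CPM, again without overlap. The mean of the sham libraries was highest on the excess diet, at 822 CPM against 655 CPM on the control and 717 CPM on the deficient diet. The log2 difference between the operations was smallest on the excess diet and did not pass the test. On that diet all 5 sham libraries were of series A, while 3 of the 5 Glenn libraries were of series B. The log2 difference was 0.62 on the control diet (SE 0.10, edgeR adjusted p 1.62e-05), 0.52 on the deficient diet (SE 0.10, edgeR adjusted p 0.000216) and 0.22 on the excess diet (SE 0.11, edgeR adjusted p 0.157). Averaged over diets it was 0.46 (SE 0.06, edgeR adjusted p 1.27e-07), with means of 731 ± 118 and 1012 ± 75.3 CPM (SD, n = 15 each). The rise on the deficient diet was 0.38 and did not pass the test in series B alone (edgeR adjusted p 0.0696) or in the RT1-CE16-high libraries alone (0.109). The difference on the excess diet passed the test without the series term (0.32, edgeR adjusted p 0.0214) and in the RT1-CE16-low libraries alone (0.34, 0.0298), and with the mural and epithelial scores as covariates it was 0.41 and did not pass (0.202).

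**Figure D2:**
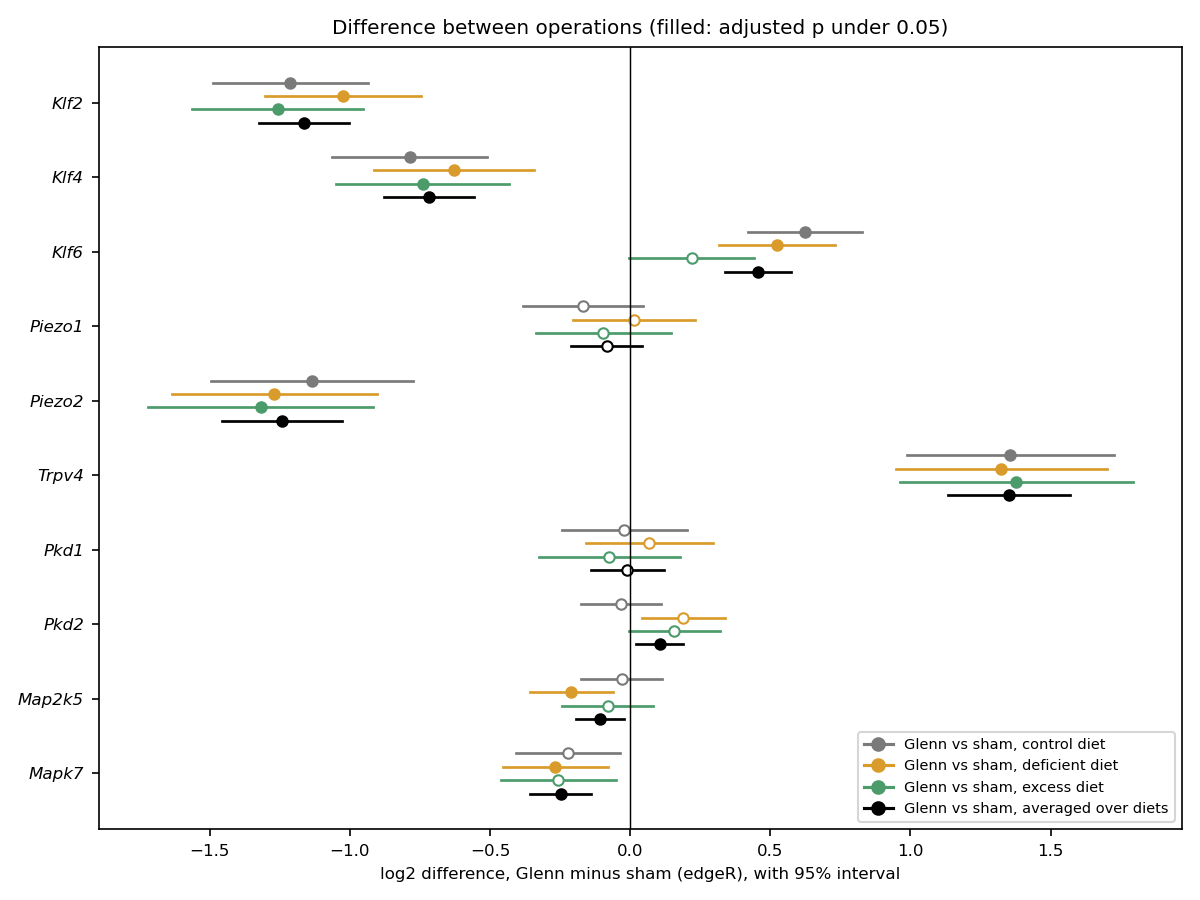
Log2 difference between Glenn and sham libraries (horizontal axis) of each gene for each diet and averaged over diets, from edgeR, with 95% intervals; filled points have an adjusted p under 0.05. The intervals of Klf2, Klf4, Piezo2 and Trpv4 lie to 1 side of 0 on every diet, and those of Piezo1 and Pkd1 hold 0 on every diet.

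Among the ion channels, Piezo2 fell and Trpv4 rose after Glenn surgery on every diet, by similar factors in opposite directions, and Piezo1 did not pass the test on any diet. Averaged over diets, Piezo2 was 2.36-fold lower and Trpv4 2.55-fold higher.

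Piezo2 (ENSRNOG00000038784) encodes a stretch-gated cation channel best known from touch receptors and sensory nerves of the lung. On the control diet the sham libraries had 54.4, 54.4, 62.9, 64.1 and 80.7 CPM of Piezo2 and the Glenn libraries 19.6, 27.8, 28.8, 29.1 and 38.7 CPM. On the deficient diet the values were 57.3, 61.1, 66.1, 69 and 73.6 CPM in sham libraries and 19.8, 23.2, 24.3, 32.5 and 33.4 CPM in Glenn libraries. On the excess diet they were 52.1, 60.1, 60.5, 63.2 and 67 CPM in sham libraries and 16.9, 19, 28, 33.7 and 35 CPM in Glenn libraries. No Glenn library came near the lowest sham library, and the Glenn libraries varied more around their mean, with a coefficient of variation of 24.3% against 12% over the 15 libraries each. The log2 difference was -1.14 on the control diet (SE 0.18, edgeR adjusted p 1.45e-05), -1.27 on the deficient diet (SE 0.18, edgeR adjusted p 3.28e-06) and -1.32 on the excess diet (SE 0.20, edgeR adjusted p 1.07e-05). Averaged over diets it was -1.24 (95% interval -1.46 to -1.03, edgeR adjusted p 8.65e-11), with means of 63.1 ± 7.59 and 27.3 ± 6.64 CPM (SD, n = 15 each). With mural and epithelial marker scores as covariates it was -0.86 (edgeR adjusted p 0.0194), and no longer passed the test on the deficient diet (-0.87, 0.0641) or the excess diet (-0.84, 0.14). Markers of general capillary cells fell beside it, from 6166 to 9341 CPM summed after sham to 2779.9 to 6450.4 CPM after Glenn surgery, as did those of aerocyte capillary cells, from 1309 to 2133 CPM to 478 to 713 CPM. A sum is ruled by its most abundant genes. The median log2 difference per marker, averaged over diets, was -0.244 for general capillary and -1.649 for aerocyte capillary cells. The part of these markers in the results for Piezo2, Klf2 and Klf4 was not tested.

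Trpv4 (ENSRNOG00000001195) encodes a calcium channel of endothelium, smooth muscle and epithelium that opens on stretch, swelling and warmth. It was the member with the fewest reads, 162 to 1441 counts per library. On the control diet Trpv4 had 5.81, 6.24, 6.99, 7.14 and 7.86 CPM in sham libraries and 14.6, 17.4, 17.4, 18.6 and 19.1 CPM in Glenn libraries. Trpv4 on the deficient diet had 6.43, 6.49, 7.79, 7.89 and 10.9 CPM in sham libraries and 14.9, 16.7, 17.2, 24.9 and 27.1 CPM in Glenn libraries. Trpv4 on the excess diet had 4.77, 7.11, 7.37, 7.9 and 8.49 CPM in sham libraries and 13.9, 15.1, 16.1, 17.3 and 25.4 CPM in Glenn libraries. Every Glenn library was above every sham library, and 3 Glenn libraries, 2 of them on deficient and 1 on excess vitamin A, stood above the other Glenn libraries. The log2 difference was 1.36 on the control diet (SE 0.18, edgeR adjusted p 1.11e-06), 1.32 on the deficient diet (SE 0.18, edgeR adjusted p 2.15e-06) and 1.38 on the excess diet (SE 0.20, edgeR adjusted p 7.28e-06). Averaged over diets it was 1.35 (95% interval 1.14 to 1.57, edgeR adjusted p 1.01e-11), with means of 7.28 ± 1.39 and 18.4 ± 4.14 CPM (SD, n = 15 each).

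Mural markers rose beside Trpv4. The 8 genes of that list, of smooth muscle cells and pericytes, summed to 161 to 327 CPM after sham and 466 to 1687 CPM after Glenn surgery, and all 8 were detected in every library. These ranges did not overlap, so a fit with the mural score as a covariate cannot fully separate the operation from the mural level. With the mural and epithelial scores as covariates the Trpv4 difference averaged over diets was 0.70 and still passed the test (edgeR adjusted p 0.0272), but it did not on the deficient diet (0.62, 0.136) or the excess diet (0.64, 0.227). On the control diet it was then 0.84 (edgeR adjusted p 0.008). Within series A alone, without these covariates, the averaged difference was 1.29.

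Piezo1 (ENSRNOG00000056786), the main stretch-gated channel of endothelium, had a lowest, median and highest level of 134, 178 and 216 CPM in sham libraries and 142, 162 and 206 CPM in Glenn libraries (n = 15 each). The ranges lay nearly on top of each other. Its log2 difference averaged over diets was -0.08 (SE 0.06, edgeR adjusted p 0.277), with a 95% interval of -0.21 to 0.04. On single diets it ranged from -0.17 to 0.01, with edgeR adjusted p-values of 0.266 to 0.948.

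The promoters of the 2 channels that changed among these 10 genes, not counting the polycystins, are shown because KLF factors bind CACCC boxes, so the letters by which such factors are known to find DNA can be seen beside the genes. The sequences are the 250 bases before the start of each gene, from RefSeq on GRCr8, which held such a window for 8 of the 10 genes, Klf2 and Piezo1 not among them. Capitals mark each CACCC or, for the other strand, GGGTG. The window of Trpv4 is chr12:47598938-47599187 on the plus strand, and that of Piezo2 is chr18:59115216-59115465 on the minus strand, both written 5′ to 3′ toward the gene.
Trpv4: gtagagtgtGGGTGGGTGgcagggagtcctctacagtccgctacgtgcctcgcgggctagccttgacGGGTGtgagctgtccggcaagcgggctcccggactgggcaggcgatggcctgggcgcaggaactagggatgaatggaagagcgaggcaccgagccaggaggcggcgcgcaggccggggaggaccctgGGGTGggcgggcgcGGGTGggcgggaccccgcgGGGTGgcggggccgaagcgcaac
Piezo2: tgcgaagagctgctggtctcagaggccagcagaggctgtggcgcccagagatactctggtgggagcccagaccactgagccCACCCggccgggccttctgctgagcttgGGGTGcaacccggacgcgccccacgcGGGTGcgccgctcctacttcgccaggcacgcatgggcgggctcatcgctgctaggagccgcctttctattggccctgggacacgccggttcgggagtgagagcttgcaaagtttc

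The Trpv4 window held 6 such matches, 2 of them sharing letters, and the Piezo2 window 3. A match on either strand occurred in 49.2% of the 33469 windows of the table, Pkd1 had 2 and Pkd2 had 1, and the windows of Klf4, Klf6, Map2k5 and Mapk7 had none. That share is not matched for base content. G and C made up 72.8% of the Trpv4 window and 66.8% of the Piezo2 window, against a median of 51.2% over all windows. The MEF2 motif, through which ERK5 signals reach DNA, occurred in 2.96% of all windows and in none of the 8 searched here. The Klf4 window held 43.2% G and C, against 61.6% to 72.8% in the other windows searched. Each window rests on the RefSeq start of its gene, and whether these cells use that start was not tested. A window without a match therefore does not show that the promoter in use lacks the motif. These are matches of letters in a short window and no measure of binding.

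The polycystins moved little. Pkd1 (ENSRNOG00000010771), which encodes the large receptor-like polycystin-1, had 60.6, 76.3 and 91.6 CPM as the lowest, median and highest level in sham libraries and 55.7, 77.4 and 94.8 CPM in Glenn libraries. Its log2 difference averaged over diets was -0.01 (95% interval -0.14 to 0.12, edgeR adjusted p 0.918), and its sign turned with the scaling, to 0.002 with DESeq2 size factors. Pkd2 (ENSRNOG00000002146), which encodes the cation channel polycystin-2, had 52.8, 64.2 and 80.1 CPM in sham libraries and 63.6, 69.9 and 83.3 CPM in Glenn libraries. Averaged over diets Pkd2 rose by 0.10 in log2 (SE 0.04, edgeR adjusted p 0.0373), a 1.08-fold difference close to the threshold. The rise was not on the control diet (-0.03, edgeR adjusted p 0.791) and missed the threshold on the deficient diet (0.19, 0.0501) and the excess diet (0.16, 0.167), although all 5 Glenn libraries on the excess diet, at 64.1 to 74.3 CPM, were above all 5 sham libraries, at 52.8 to 64 CPM. The averaged rise was lost in 4 of 13 alternatives and on leaving out any of 8 libraries in turn, and it was -0.03 with the mural and epithelial scores as covariates.

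Both kinases that carry the flow signal to the KLF genes fell slightly. Mapk7 (ENSRNOG00000047907), the gene of ERK5, had 30.4, 36.2 and 42.9 CPM as the lowest, median and highest level in sham libraries and 26.3, 29.6 and 34.7 CPM in Glenn libraries. The ranges overlapped, and the log2 difference averaged over diets was -0.25 (SE 0.05, edgeR adjusted p 0.000279), a 1.19-fold fall. On the control, deficient and excess diets in turn the difference was -0.22, -0.27 and -0.26, with edgeR adjusted p-values of 0.0723, 0.0296 and 0.066. The fall of Mapk7 on the deficient diet did not pass the test in 6 of 16 alternatives or on leaving out any of 6 libraries in turn. With the mural and epithelial scores as covariates the averaged difference was -0.01 (edgeR adjusted p 0.962). Map2k5 (ENSRNOG00000007926), the gene of MEK5, had 22.6, 25 and 27.6 CPM in sham libraries and 20.3, 23 and 27.7 CPM in Glenn libraries. It fell by 0.11 in log2 averaged over diets (SE 0.04, edgeR adjusted p 0.0349) and by 0.21 on the deficient diet (SE 0.07, edgeR adjusted p 0.0287), where the Glenn libraries at 20.3 to 23 CPM lay below the sham libraries at 23.6 to 26.8 CPM. On the control and excess diets Map2k5 differed by -0.03 and -0.08, with edgeR adjusted p-values of 0.815 and 0.527. The averaged fall was lost in 6 of 13 alternatives and on leaving out any of 11 libraries in turn, and the fall on the deficient diet in 6 of 16 alternatives (edgeR adjusted p up to 0.485) and on leaving out any of 5 libraries.

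None of the 10 genes passed the test for a difference between the diets. After sham surgery 0 of 10 were called (0% of all genes, 1417 of which had an unadjusted p under 0.05 in edgeR), after Glenn surgery 0 of 10 (0.538% of all genes, or 87), and for a Glenn effect that depends on the diet 0 of 10 (0.00618%). DESeq2 and limma voom called 0 of 10 in each of these tests too. The 87 genes after Glenn surgery became 2 to 333 on leaving out 1 library, 2 without the Glenn excess-diet replicate 1 and 333 without the Glenn control-diet replicate 1, with 0 of the 10 genes called in either case. At an unadjusted p under 0.05 in edgeR, Klf2, Klf6 and Pkd2 differed between diets after sham surgery (p 0.0203, 0.0041 and 0.00954) and Klf6 had a diet-dependent Glenn effect (p 0.0324). Their edgeR adjusted p-values were 0.437, 0.251, 0.345 and 0.835.

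The differences of the KLF genes between the excess and control diets are given next, and none of them passed the test. After sham surgery the log2 difference of excess minus control was 0.34 for Klf2 (95% interval 0.07 to 0.61), 0.32 for Klf4 (0.05 to 0.60) and 0.33 for Klf6 (0.13 to 0.53), so the 3 genes stood higher on the excess diet by like amounts, with edgeR adjusted p-values of 0.326, 0.36 and 0.159. Excess minus deficient after sham surgery was 0.38 for Klf2, 0.21 for Klf4 and 0.31 for Klf6. After Glenn surgery excess minus control was 0.29 for Klf2, 0.37 for Klf4 and -0.08 for Klf6. Pkd2 went the other way after sham surgery, at -0.23 (95% interval -0.38 to -0.09, edgeR adjusted p 0.171). All libraries of the sham groups on the control and excess diets were of series A, while the sham group on the deficient diet held 2 of series A and 3 of series B. Genes that dissociation of tissue is known to induce, 16 of which were measured, also stood highest in the sham group on the excess diet, with a mean log2(CPM + 1) of 10.52 ± 0.12 against 10.24 ± 0.18 on the control diet (SD, n = 5 each), and that group alone held RT1-CE16-low libraries only. Their part in the diet differences was not tested. Between the operations the dissociation score was 10.35 ± 0.18 after sham and 10.33 ± 0.14 after Glenn surgery (SD, n = 15 each). With that score as a covariate the averaged differences of Klf2 and Klf4 were -1.16 and -0.71. Of the 16 genes in the score, 6 rose and 4 fell after Glenn surgery, and such a mean can stay level while its genes move. Neither the score nor this fit can therefore show that the response to dissociation was equal, and its part in the fall of Klf2 and Klf4 was not tested.

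The lists of neighbouring genes in the pathway moved in both directions after Glenn surgery. All counts that follow are from edgeR averaged over diets, beside 23.4% of all genes higher and 24.7% lower, and beside a median log2 difference of -0.01 over all genes. Counts with the mural and epithelial scores as covariates stand beside 2181 of all 16171 tested genes, which were 7792 without these covariates. Calls were thus lost over all genes and not in these lists alone. Of 22 other flow sensors, 5 rose and 9 fell, with a median of -0.15. Kcnk2, the gene of the stretch-activated potassium channel TREK-1, fell 9.51-fold from 19.3 ± 4.77 to 2.2 ± 0.963 CPM (SD, n = 15 each). Kcnj2, the gene of the flow-sensitive potassium channel Kir2.1, rose 2.8-fold from 14.9 ± 2.98 to 42.6 ± 9.23 CPM. Of the endothelial receptors that sit in a junctional flow-sensing complex, Flt4 (VEGFR3) rose 2-fold and Kdr (VEGFR2) fell 1.81-fold, and the G protein subunit gene Gna11 fell 1.37-fold. Flt4 is also 1 of the 5 lymphatic markers, which all rose. The edgeR adjusted p-values of these 5 genes were between 9.61e-15 and 7.57e-10. Of the 22, 6 passed the test with the mural and epithelial scores as covariates.

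Of 13 other genes on or around the route from MEK5 and ERK5 to the KLF genes, 3 rose and 7 fell, with a median of -0.12. Heg1, the receptor that anchors the CCM complex, which restrains KLF expression, fell 1.56-fold from 457 ± 54.9 to 290.3 ± 61.5 CPM (SD, n = 15 each, edgeR adjusted p 8.64e-08), and its partner Rasip1 fell 1.38-fold. Of the MEF2 factors, Mef2c rose 1.53-fold and Mef2a fell 1.23-fold, and the kinase chaperone Cdc37 rose 1.19-fold. With the mural and epithelial scores as covariates 1 of the 13 passed the test.

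Among 12 tested other KLF genes of 14 listed, 0 rose and 8 fell, with a median of -0.38. Klf14 and Klf17 were too low to be tested. Klf7 fell 1.85-fold from 147 ± 17 to 81 ± 10.2 CPM and Klf11 1.71-fold from 121 ± 14.8 to 71.9 ± 8.83 CPM (SD, n = 15 each), both without overlap between the operations. Klf3, Klf10 and Klf16 fell 1.4-fold, 1.35-fold and 1.38-fold. The 4 that did not pass the test, Klf1, Klf5, Klf8 and Klf15, had log2 differences of 0.20 to 0.56. With the mural and epithelial scores as covariates 2 of the 12 passed the test.

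Genes known as KLF2 or KLF4 targets did not move as one. Of 13 genes that these factors raise in endothelium, 4 rose and 5 fell, with a median of -0.09. Slco2a1, a prostaglandin transporter gene, fell 2.98-fold from 1522 ± 159 to 514 ± 103 CPM, and Thbd, which encodes the anticoagulant thrombomodulin, fell 2.64-fold from 3784 ± 341 to 1419 ± 314 CPM (SD, n = 15 each). Podxl, of the sialomucin podocalyxin, fell 1.67-fold. In the other direction Nos3, which encodes the endothelial nitric oxide synthase, rose 1.88-fold from 81.9 ± 10.1 to 154 ± 35.2 CPM, and Ccn3 rose 2.33-fold. Of 12 genes known to be lowered by KLF2, KLF4 or laminar flow, 5 rose and 4 fell, with a median of 0.16. Angpt2, of the vessel-destabilising ligand angiopoietin-2, rose 5.2-fold from 16.1 ± 1.27 to 85 ± 18.1 CPM. Ccl2, of a monocyte chemokine, rose 2.6-fold, and Ccn2, of a matrix protein, rose 1.89-fold. Edn1, which encodes the vasoconstrictor endothelin-1, fell 1.98-fold from 466 ± 99.4 to 227 ± 48.9 CPM, and Kdr, which is in both this list and that of flow sensors, fell too. The edgeR adjusted p-values of the genes named from these 2 lists were between 3.76e-18 and 6.58e-09. Of the 12 genes lowered by KLF factors or flow, 5 passed the test with the mural and epithelial scores as covariates. Of the 13 genes raised by KLF2 or KLF4, 7 to 10 passed it over the 13 alternatives.

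Of 16 dissociation genes, 6 rose and 4 fell, with a median of -0.08. The named ones moved by 1.2-fold to 1.41-fold, Fos, Egr1 and Zfp36 upward and Nfkbia and Jun downward. Of the 16, 3 passed the test with the mural and epithelial scores as covariates.

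**Figure D3:**
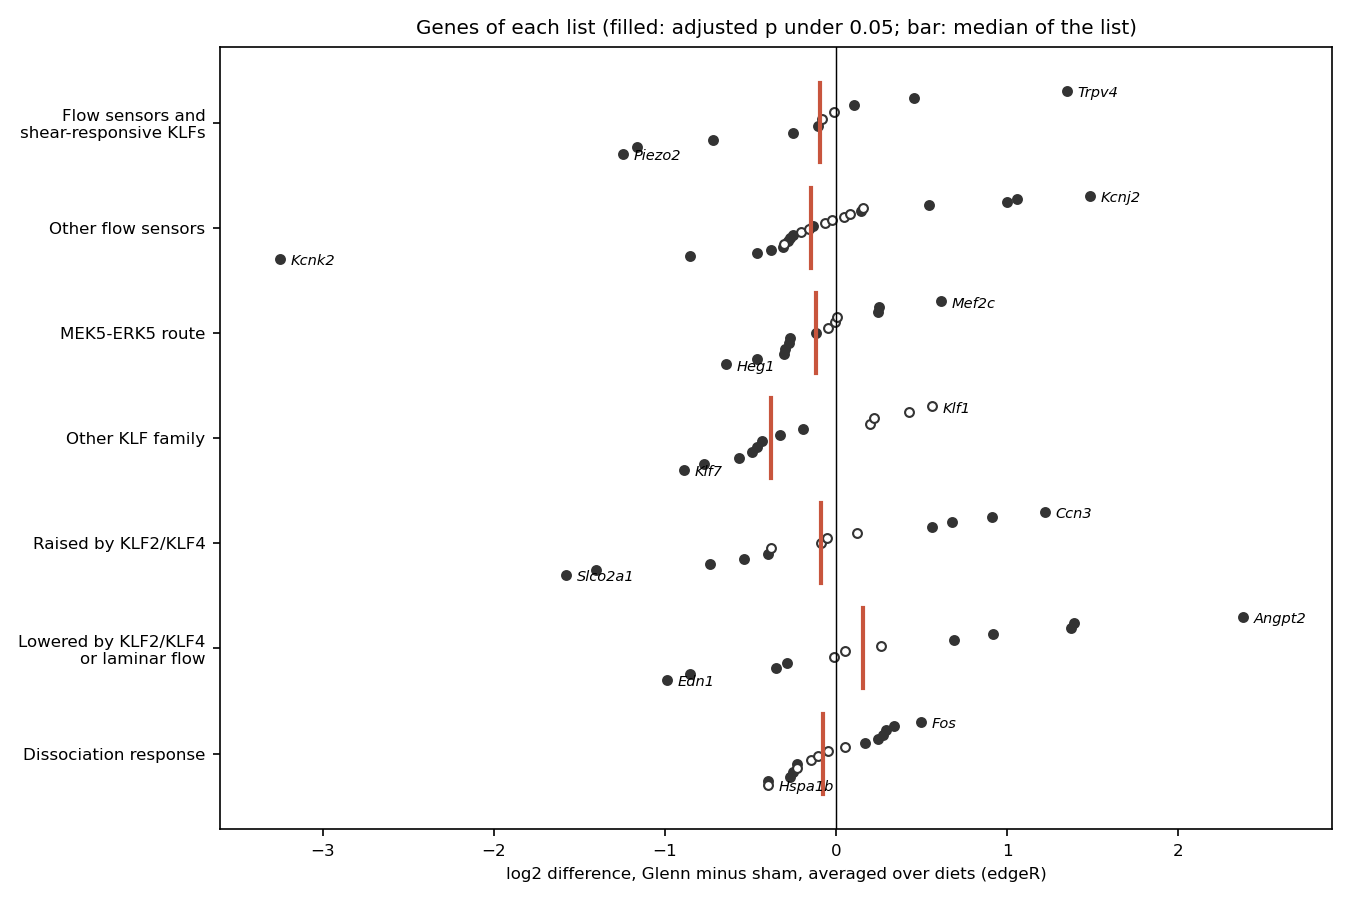
Log2 difference between Glenn and sham libraries averaged over diets (horizontal axis, edgeR) of each tested gene of the 10 described genes and of 6 other lists; each point is a gene, filled where the adjusted p is under 0.05, and the red bar is the list's median. Filled points lie on both sides of 0 in every list but the other KLF genes, where all 8 lie below 0.

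Libraries of a group also differed among themselves, and pairs of the 10 genes shared part of that variation. After subtracting each group's mean from log2 CPM, 65 relations were computed over the 30 libraries: the 45 pairs of the 10 genes, and each gene with the dissociation score and with the mural score. Libraries share depth and cell make-up, so a relation is a description of these libraries. Klf2 and Klf4 varied together, with Pearson's r of 0.73 and Spearman's rho of 0.68 (permutation p 0.00014 and 0.00043, adjusted over the 65 relations 0.00455 and 0.00932). Without the 2 libraries farthest from the median of Klf2, r was 0.66. It was 0.67 in series A, 0.46 in the RT1-CE16-low and 0.93 in the RT1-CE16-high libraries. Klf4 followed the dissociation score as well, with r of 0.67 and rho of 0.67 (permutation p 0.00052 and 0.00043, adjusted 0.0113 and 0.00932), r of 0.65 without the 2 farthest libraries and r of 0.77 in series A. Klf2 and the dissociation score had r of 0.61 and rho of 0.53 (permutation p 0.0026 and 0.00762, adjusted 0.0422 and 0.0619), so that r passed the threshold and rho missed it. Their r was 0.49 without the 2 farthest libraries and 0.47 in series A. Piezo1 and Pkd1, which did not pass the test between the operations, also varied together, with r of 0.72 and rho of 0.72 (permutation p 9e-05 and 4e-05, adjusted 0.00455 and 0.0026), r of 0.67 without the 2 farthest libraries and r of 0.80 in series A.

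Piezo2 and Trpv4 tended to opposite sides within groups, with r of -0.53 and rho of -0.53, but the adjusted permutation p-values of 0.0615 and 0.0594 missed the threshold, and r was -0.33 in series A and -0.81 in the RT1-CE16-high libraries. Trpv4 and the mural score had r of 0.57 and rho of 0.56, with adjusted permutation p-values of 0.0615 and 0.0594, r of 0.55 without the 2 farthest libraries and 0.47 in series A. Piezo1 and Piezo2 missed the threshold alike, with r of 0.51 and rho of 0.52 (adjusted permutation p 0.0615 and 0.0594). Their r was 0.68 in series A and -0.05 in series B. Mapk7 and the mural score had r of -0.42 and rho of -0.55 (adjusted permutation p 0.181 and 0.0594).

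**Figure D4:**
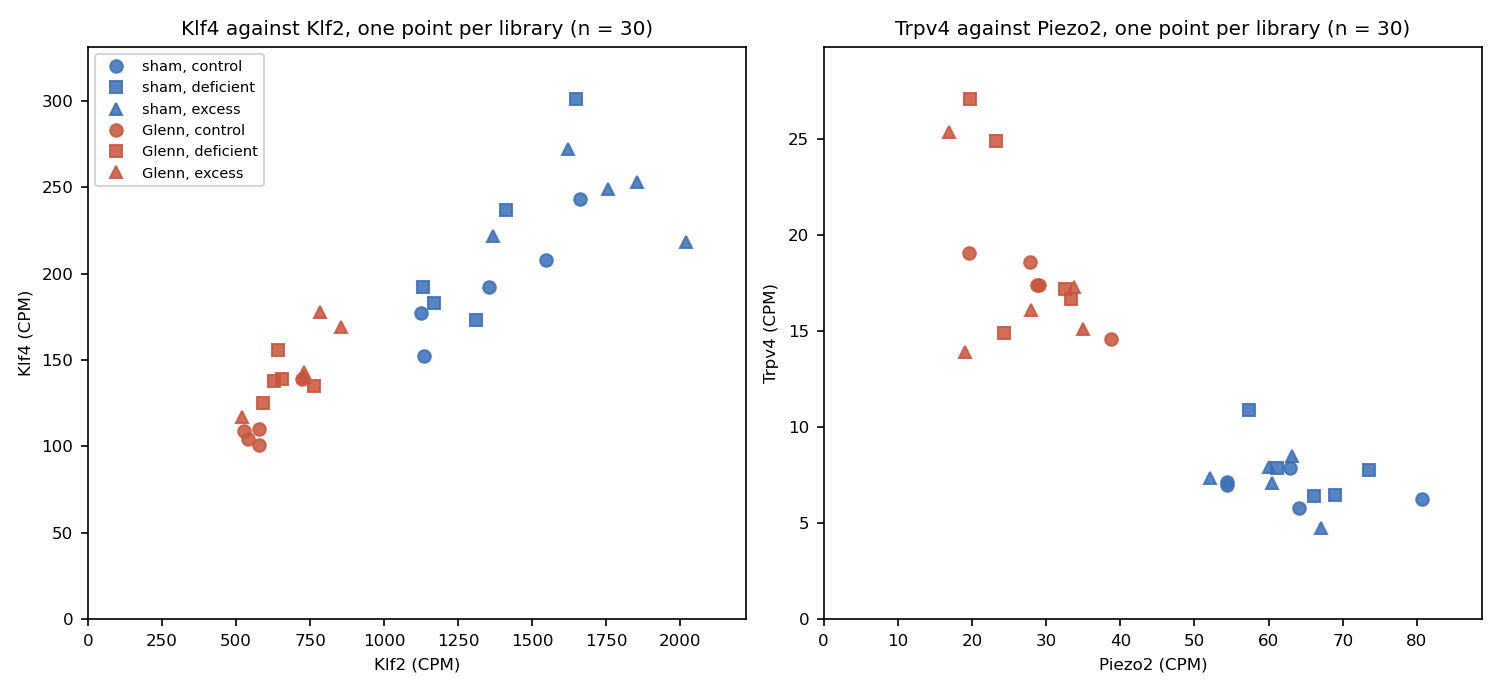
Klf4 against Klf2 (left) and Trpv4 against Piezo2 (right), both axes in CPM from 0, with 1 point per library (n = 30); colour marks the operation and shape the diet. Sham and Glenn libraries are apart along the Klf2, Piezo2 and Trpv4 axes and overlap along the Klf4 axis.

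Among genes that averaged 1 CPM or more, the 3 whose group-centred levels over the 30 libraries were most like those of Klf2 were Plbd2 (r 0.75), Klf4 (r 0.73) and Ier2 (r 0.71), the last an immediate early gene of the dissociation list. For Klf4 they were Klf2 (r 0.73), Procr (r 0.73), the gene of the endothelial protein C receptor, and Tgfb1 (r 0.72). Likeness within groups is not likeness between the operations. Procr and Tgfb1 rose after Glenn surgery (log2 difference 0.454 and 0.495, edgeR adjusted p 0.00394 and 7.11e-05), while Klf4 fell. Without centring, r with Klf4 was -0.12 for Procr, -0.34 for Tgfb1 and 0.93 for Klf2, and r with Klf2 was 0.07 for Plbd2 and 0.79 for Ier2. For Klf6 they were Bhlhe40 (r 0.76), Dnajb4 (r 0.70) and B3gnt2 (r 0.70). For Piezo1 they were Tln1 (r 0.87), which encodes the integrin-binding protein talin-1, Med12 (r 0.86) and Lama5 (r 0.83). For Piezo2 they included Ssh2 (r 0.76) and Zbtb44 (r 0.72). Klf2 and Klf4 were thus each among the 3 genes most like the other.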

How the data were processed

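Gene expression was measured by RNA sequencing in 30 libraries, 6 groups of 5, made with the PureLink and SMART-Seq v4 kits per the labels' protocols. The authors deposited 1 table of estimated counts per gene, not normalized, and 10.4% of its values were not whole. The submitters' processing notes name FastQC, Trim Galore, STAR, Picard and Salmon and the builds mRatBN7.2 and rn7. Versions, annotation release and strand setting are not given in the sources used here. All sample columns were used, and 0 were left out.

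Estimated counts were rounded. The filterByExpr step of edgeR 4.0.16, at a minimum count of 10 and a minimum total of 15, set the genes tested, and TMM factors ran from 0.938 to 1.06. All libraries entered a single quasi-likelihood model in R 4.3.3 with 1 mean per group plus a term for series B (estimateDisp, then glmQLFit with legacy = TRUE and robust = TRUE, then glmQLFTest). Standard errors are the log2 difference divided by the square root of F. The steps were tested on simulated data. The 60 pairs of replicates correlated at a Spearman rho of 0.981 to 0.993 and differed by more than sampling noise (chi-square per degree of freedom 20.2 to 119.9), so none was treated as a library deposited more than once. Whether they come from separate animals is not shown by this. RT1-CE16-high means above 100 CPM. Sex was read from the level of Ddx3y, with above 10 CPM taken as male, which gave 13 male and 17 female libraries. Each group held both sexes, with 2 or 3 male libraries, and the main fit had no term for sex. Marker and dissociation scores are means of log2(CPM + 1). Relations between genes were tested by 100000 permutations within groups.

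The 10 genes, the gene lists and the marker lists were chosen with earlier results of these data known. Named are all 10 genes, from each other list the 5 changed genes with the smallest adjusted p, and for 5 of the 10 genes the 3 most like them, 1 of which is not reported here. Of the dissociation list, Dusp1 did not match by name. Alternatives were DESeq2 size factors, DESeq2 1.42.0, limma voom (limma 3.58.1), legacy = FALSE, no filter, no series term, series A only, RT1-CE16 level, alone or with sex, replacing the series, marker or dissociation scores as covariates, the replicate number as a block, only the groups compared, and leaving out each library. Fits within RT1-CE16-low, RT1-CE16-high or series B libraries were added after seeing the data. Figures were drawn with matplotlib 3.10.9.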

Additional observations from a re-analysis of the deposited data

Results flagged for a closer look

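Among the 60 sets of 5 libraries (10 genes in 6 groups), 3 held a library far from the other 4, by a gap of over 0.71 of the whole range, and chance alone gives about 3 such sets. All 3 lay in the Glenn group on the control diet. Replicate 2 was highest for Klf2, at 723 CPM against 526 to 579 CPM (gap 0.731 of the range), and for Klf4, at 139 CPM against 100.5 to 110.3 CPM (gap 0.745). Replicate 1 was highest for Piezo1, at 206 CPM against 142 to 157 CPM (gap 0.766). On that diet, leaving replicate 2 out gave a log2 difference between Glenn and sham of -1.30 for Klf2 and -0.87 for Klf4 (edgeR adjusted p 4.43e-08 and 2.47e-05), and leaving replicate 1 out gave -0.27 for Piezo1 (0.0614).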

How the results depend on the processing

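Klf2 was lower after Glenn surgery and passed the test on each diet and averaged over diets under every alternative and on leaving out each library, with averaged differences of -1.243 to -1.025. Trpv4 and Piezo2 kept their directions throughout and lost the call only with the mural and epithelial scores as covariates, on the deficient and excess diets. With those covariates the count of the 10 genes called went from 7 to 3 on the deficient diet, from 4 to 2 on the excess diet and from 8 to 5 averaged over diets. It was 4 on the deficient diet in the RT1-CE16-high and in the series B libraries, and 7 on the excess diet without the series term. The count over all genes went with the covariates from 7792 to 2181 averaged over diets. The summed mural markers did not overlap between sham and Glenn libraries (161 to 327 and 466 to 1687 CPM). Fits with the mural score therefore cannot fully separate the operation from the mural level. The cause of these changes was not tested. Leaving out each library gave 5 to 6 genes called on the control, 5 to 8 on the deficient and 4 to 5 on the excess diet, and 6 to 8 averaged over diets. Other lists went with the covariates from 14 to 6 called (flow sensors), 10 to 1 (MEK5 and ERK5), 8 to 2 (KLF family), 9 to 5 (genes lowered by KLF) and 10 to 3 (dissociation). The list of genes raised by KLF2 or KLF4 moved less, from 9 called to 7 to 10 over the 13 alternatives.

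Signs turned only for differences near 0 that had not passed the test, and for Pkd2 averaged over diets, which had. With the mural and epithelial scores these were Map2k5 on the control diet (0.005), Pkd1 (-0.178) and Piezo1 (-0.008) on the deficient diet, and Pkd2 on the excess diet (-0.018) and averaged (-0.027). In the RT1-CE16-high libraries they were Pkd2 (0.012) and Map2k5 (0.051) on the control diet, and in the RT1-CE16-low libraries Pkd1 on the control diet (0.22) and averaged (0.047) and Piezo1 on the deficient diet (-0.068). Piezo1 was -0.064 there in series A. With a term for RT1-CE16 level and none for the series, Pkd1 was 0.003 on the control diet and 0.004 averaged, and with sex added 0.004 and 0.006. Pkd1 was 0.006 on the excess diet and 0.009 averaged without the series term, and 0.002 averaged with DESeq2 and with its size factors. Leaving out each library gave ranges across 0 for Pkd2 (-0.066 to 0.017), Map2k5 (-0.051 to 0.007) and Pkd1 (-0.094 to 0.045) on the control diet, Piezo1 on the deficient diet (-0.037 to 0.056), and Pkd1 on the excess diet (-0.143 to 0.038) and averaged (-0.04 to 0.024).

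Replicate numbers did not pair the sham and Glenn samples of a diet, the groups compared. Of 15 same-numbered sham and Glenn pairs, 7 had deviations that correlated above 0.1 (range -0.246 to 0.231), and 5 of 15 samples correlated best with their own number. Over all 15 pairs of groups, every same-numbered pair was above 0.1 in 2, sham control with sham deficient (0.139 to 0.258) and sham deficient with Glenn excess (0.104 to 0.279), as a hint from the data only. With the replicate block 5, 7 and 4 of the 10 genes were called on the 3 diets in the order control, deficient, excess, and 8 averaged over diets, 0 were called in the 3 diet tests, and Pkd1 was 0.027 on the excess diet and 0.017 averaged.

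Over all genes, calls on the control diet went from 4023 to 2125 with the covariates and 1563 in RT1-CE16-low libraries. On the deficient diet they went from 4423 to 2553 in series A, 1546 with the covariates, 2398 in RT1-CE16-low libraries, 2636 in RT1-CE16-high libraries and 2274 in series B. On the excess diet they went from 3549 to 2270 in series A, 984 with the covariates, 1960 with only the 2 groups and 2152 in RT1-CE16-low libraries. The diet tests called 0 genes after sham (0 to 202 over the alternatives, 0 to 10 on leaving out each library), 87 after Glenn (0 to 384, 2 to 333) and 1 for the interaction (0 to 35, 0 to 14), never 1 of the 10 genes.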
